A study of Mus musculus with 2 samples.

Results

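Mir148a, Mir148b and Mir152 are the 3 genes of the mouse miR-148/152 family, and they were chosen by their symbols in the GENCODE M21 annotation. They are 3 of the 2202 microRNA genes in the tables. The libraries hold small RNAs shorter than 30 bases from left cerebral cortex, taken at an age of 4 days from females of the strain B6CASTF1/J. That strain is a first-generation hybrid of C57BL/6 and castaneus parents. The single group held 2 animals, numbered separately under a common donor record, with 1 library each. The labels name no treatment, and no other tissue, age or strain was analysed here. There is thus no contrast between conditions and no test of one, and what can be compared is the members with each other, with other microRNA genes and between the animals.

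MicroRNAs are cut from hairpin precursors and guide silencing complexes to messages that pair with their seed, which is the stretch of bases 2 to 8 of the mature strand. The miR-148/152 family is best known for pairing with the message of Dnmt1, the maintenance DNA methyltransferase, and Mir148a is also known as an abundant microRNA of liver. Each hairpin yields a 3p strand, which carries the family's seed, and a 5p strand from the opposite arm.

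The mature strands are shown because they define the family and because their differences decide whether a read can be given to 1 gene. They come from RefSeq on GRCm38.p6, the build also called mm10. All 3 members were matched with both arms, and capitals mark the seed.
miR-148a-3p: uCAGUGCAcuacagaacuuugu
miR-148b-3p: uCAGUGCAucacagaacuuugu
miR-152-3p: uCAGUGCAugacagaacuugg
miR-148a-5p: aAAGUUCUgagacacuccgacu
miR-148b-5p: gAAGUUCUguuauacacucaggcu
miR-152-5p: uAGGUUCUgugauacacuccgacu

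The 3p seed was the same in all 3 members, and no other of the 1738 mouse mature sequences in the RefSeq table had it at bases 2 to 8. Counted from the 5′ end and with the first-named member's base written first, miR-148a-3p and miR-148b-3p differed at 2 of 22 bases (C9U and U10C). Over the 21 bases of miR-152-3p, miR-148a-3p differed from it at 3 (C9U, U10G and U20G) and miR-148b-3p at 2 (C10G and U20G). All these differences lie outside the seed. On the 5p arm Mir148a and Mir148b shared a seed, while that of Mir152 differed from both by 1 base (A3G).

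The hairpins are printed with both mature arms in capitals. Runs shared by the members were counted as exact matches, which any substitution cuts short, so they do not measure how alike the precursors are.
Mir148a: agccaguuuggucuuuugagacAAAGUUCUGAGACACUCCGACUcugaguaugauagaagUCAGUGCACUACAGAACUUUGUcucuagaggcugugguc
Mir148b: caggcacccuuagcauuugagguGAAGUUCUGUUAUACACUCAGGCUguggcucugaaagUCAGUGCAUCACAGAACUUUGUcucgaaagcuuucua
Mir152: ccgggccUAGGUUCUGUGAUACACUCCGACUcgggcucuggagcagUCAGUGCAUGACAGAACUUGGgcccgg

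The longest run of bases shared by 2 of these hairpins was 15, between Mir148a and Mir148b, and it was 12 between Mir148a and Mir152 and 11 between Mir148b and Mir152. No member shared a run of 22 bases, about the length of a mature strand, with any of the other 2201 microRNA genes of the tables. How many of all genes lack such a run was not counted, so this is not shown to be particular to the family. The longest run with a gene outside the family was 12 bases, between Mir148b and Mir7029. Reads that map to several places are given to no gene in these tables, so shared runs bear on whether the members' counts are complete. Only exact runs were searched, and the mismatches that the aligner allowed are not known. The 3p strands of the members differ at only 2 or 3 bases. Whether reads were lost or exchanged between the members was thus not tested. Copies outside annotated microRNA genes, and castaneus variants within the hairpins, were not analysed here.

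The 3 genes lie on different chromosomes, with no other microRNA gene within 10000 bases of any of them. Mir148a (ENSMUSG00000065505.1) occupies bases 51269812 to 51269910 of chromosome 6 on mm10, minus strand. It overlaps no other annotated gene, and the nearest protein-coding gene, Nfe2l3, is 162760 bases away. Mir148b (ENSMUSG00000065560.1), at bases 103285125 to 103285221 of chromosome 15 (plus strand), is intronic in Copz1, 12411 bases after that gene's start. Mir152 (ENSMUSG00000065515.1), at bases 96850393 to 96850465 of chromosome 11 (plus strand), is intronic in Copz2, only 523 bases after its start. Copz1 and Copz2 are paralogs that encode the zeta subunit of the coatomer, the coat of vesicles returning from the Golgi, and both hosts have the strand of their microRNA. The host messages are not measured by small RNA libraries.

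In all, 3555469 sense-strand reads fell on microRNA genes in replicate 1 and 2761003 in replicate 2. Levels are given as CPM, a gene's reads scaled to 1000000 of these. Where a gene has no read, up to 3 counts are allowed, or 0.844 CPM (replicate 1) and 1.09 CPM (replicate 2). The tissue was checked with a cortex list of 11 microRNAs. They were Mir137, Mir139, Mir149, Mir128-1, Mir128-2 and the 3 copies each of Mir124a and Mir9. The list held 7.36% ± 1.56 (SD, n = 2) of counts, with the largest parts from Mir139 and Mir149 (means of 23650 and 20893 CPM). Of the 11 genes, 7 were detected, that is, at 2 CPM or more in both libraries, as were 20.4% of all 2202 genes. The 4 below the minimum were the 3 copies of Mir124a and Mir9-2, which are known to have near-identical copies. Of the copies of Mir9, Mir9-1 (277 and 158 reads in replicates 1 and 2) and Mir9-3 (647 and 548 reads) were detected. The part of the copies in the low counts was not tested.

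All 3 members were read in both libraries, at modest levels. Mir148b had 539 reads (152 CPM, 95% Wilson interval 139 to 165) in replicate 1 and 223 (80.8 CPM, 70.8 to 92.1) in replicate 2. Mir148a had 306 reads (86.1 CPM, 76.9 to 96.3) in replicate 1 and 193 (69.9 CPM, 60.7 to 80.5) in replicate 2. Mir152 had 128 reads (36.0 CPM, 30.3 to 42.8) and 65 (23.5 CPM, 18.5 to 30.0). Replicate 1 was thus higher for each gene, and the values of Mir148a fell on both sides of the replicate 2 value of Mir148b while those of Mir152 lay below all others. These intervals cover counting error only, and they treat reads as independent. Amplified reads are not independent molecules, so the intervals can be too narrow. None of the 3 had a read on the opposite strand in either library.

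**Figure D1:**
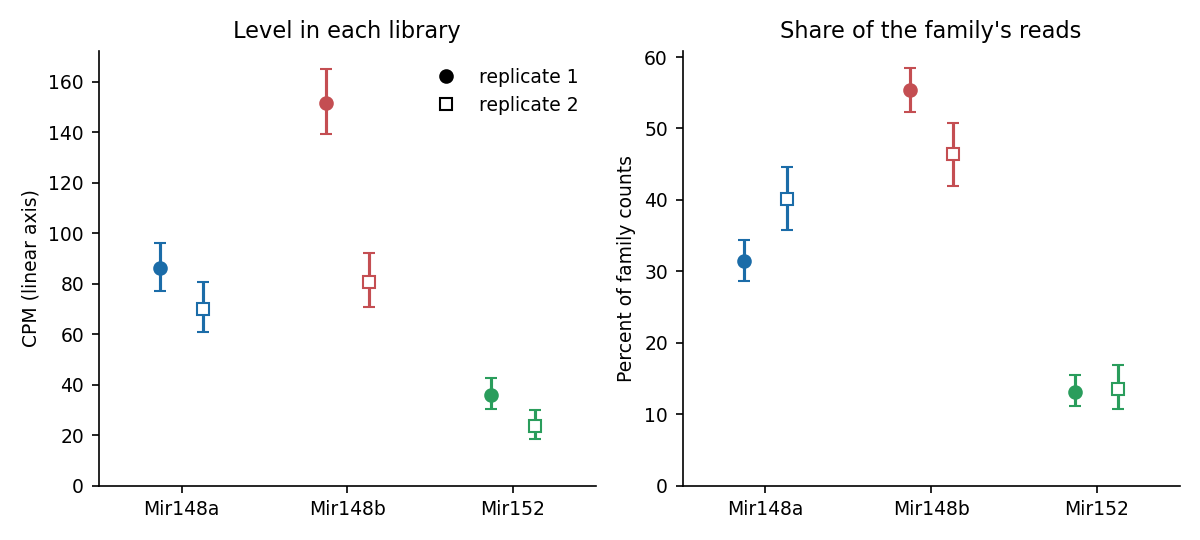
Left, CPM of Mir148a, Mir148b and Mir152 in each library. Right, the percentage of the family's counts that each gene held. Filled circles are replicate 1, open squares replicate 2, and bars are 95% Wilson intervals for counting error. Mir152 is lowest in both panels, and Mir148b lies clear of Mir148a in replicate 1, while their intervals overlap in replicate 2.

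The mean level was 116 ± 50.1 CPM for Mir148b, 78.0 ± 11.4 CPM for Mir148a and 29.8 ± 8.81 CPM for Mir152 (SD, n = 2). Together the members had 973 reads in replicate 1, or 0.0274% of microRNA counts (Wilson interval 0.0257 to 0.0291), and 481 in replicate 2, or 0.0174% (0.0159 to 0.0190). The mean share was 0.0224% ± 0.00703, so that 1454 reads over both libraries carry all the values of the family. In a whole-tissue sample, fewer cells that make a microRNA and less of it per cell cannot be told apart.

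All 3 members passed the detection minimum of 2 CPM in both libraries, as did 20.4% of the 2202 genes. By mean level Mir148b ranked 220th, Mir148a 236th and Mir152 278th of all genes. Among the 450 detected genes, 51.1% lay below Mir148b, 47.6% below Mir148a and 38.2% below Mir152, and the median of those genes was 89.2 CPM. The family's main members therefore sat near the middle of the detected profile, and Mir152 in the lower part but above the lower quartile of 10.3 CPM. The most abundant gene, Mirlet7i, was 478-fold above the sum of the family.

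**Figure D2:**
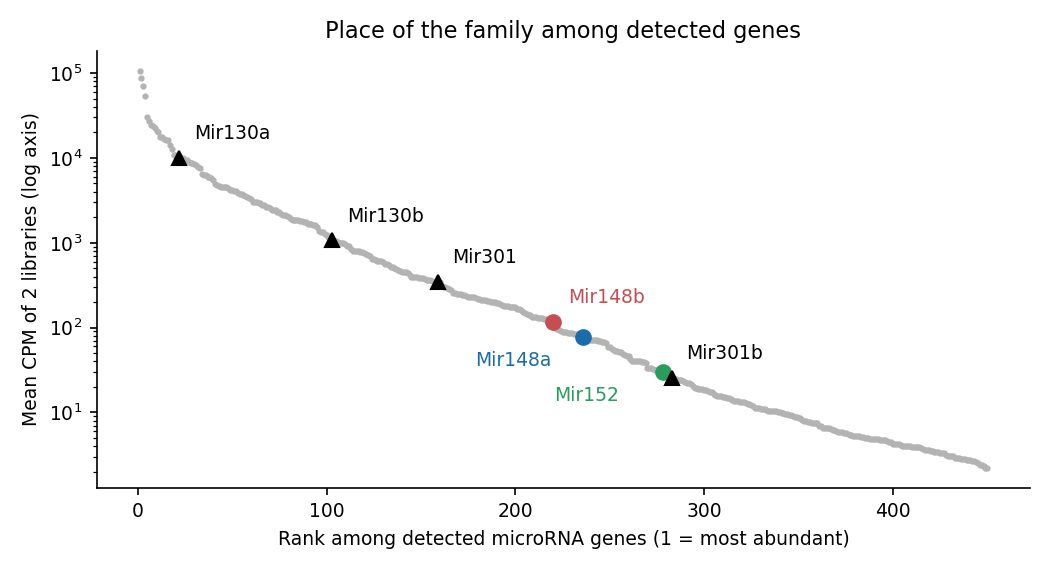
Mean CPM of the 2 libraries on a log axis against rank for the 450 genes detected in both. Coloured circles mark the family at ranks 220, 236 and 278, and black triangles mark Mir130a, Mir130b, Mir301 and Mir301b, which rank 22, 103, 159 and 283.

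Counts of members were compared within each library, where scaling plays no part. A read covers a mature strand rather than part of a long transcript, so counts were not divided by hairpin length. Both arms of a hairpin are added up in 1 count. Mir148a exceeded Mir152 by 2.39-fold in replicate 1 (exact interval 1.94 to 2.96) and by 2.97-fold in replicate 2 (2.23 to 4.00), a mean log2 ratio of 1.41 ± 0.22. Mir148b exceeded Mir152 by 4.21-fold (3.47 to 5.15) and by 3.43-fold (2.59 to 4.60), a mean log2 ratio of 1.93 ± 0.21. The gap from either Mir148 gene down to Mir152 was thus several times the spread between animals. With counts divided by the length of the hairpin, which is shortest for Mir152, the mean log2 ratios were 0.97 for Mir148a and 1.52 for Mir148b over Mir152.

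Mir148b and Mir148a were not separated in the same way. Mir148b was 1.76-fold above Mir148a in replicate 1 (1.53 to 2.03) but 1.16-fold in replicate 2, where the interval ran from 0.949 to 1.41. The mean log2 ratio of 0.51 ± 0.43 was little larger than the spread between the animals, and the ranges of the 2 genes in CPM overlapped. The order Mir148b, Mir148a, Mir152 was seen in both libraries, with the first 2 neighbours not resolved in replicate 2.

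The make-up of the family also differed between the libraries. Mir148b held 55.4% (52.3 to 58.5) of the family's reads in replicate 1 and 46.4% (42.0 to 50.8) in replicate 2. Mir148a held 31.4% (28.6 to 34.4) and 40.1% (35.8 to 44.6). For both genes the Wilson intervals of the 2 libraries did not overlap, whereas Mir152 held 13.2% (11.2 to 15.4) and 13.5% (10.7 to 16.9). The shares add up to the whole family, so the lower share of Mir148b and the higher share of Mir148a are 1 difference, not 2. How often shares differ as much in other families was not counted. With 1 library per animal these are differences between libraries, in which the animal and the handling of its tissue and RNA cannot be told apart.

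Between the animals, ratios were scaled over the whole table by TMM, the trimmed mean of log ratios. Mir148b was 1.90-fold higher in replicate 1, with a log2 ratio of replicate 2 over replicate 1 of -0.92 (exact counting interval -1.16 to -0.70). Mir152 was 1.54-fold higher there (-0.63, interval -1.08 to -0.19) and Mir148a 1.25-fold (-0.32, interval -0.58 to -0.05). All 3 intervals lay wholly below 0. Of the 525 genes that had at least 10 reads over both libraries, 30.3% had such intervals and 24.8% had intervals wholly above 0. Intervals are wider for genes with fewer reads, while the members had 65 reads or more in each library. The share among genes with as many reads as the members was not counted. None of the 3 was 2-fold or more higher in replicate 1, as 12.8% of the 525 genes were. When TMM used only those 525 genes, the interval of Mir148a reached 0, with a ratio of -0.26 (-0.53 to 0.00228).

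The members' ratios were not large beside those of other genes. The median log2 ratio was -0.63 over the 3 members and -0.06 over the 525 genes, whose ratios had an SD of 1.03. Of these genes, 25.7% had a ratio further from 0 than that of Mir148b, 36.4% further than Mir152 and 59.2% further than Mir148a. Among the 75 other genes within 2-fold of the mean level of Mir148b, 10 had a lower ratio. For Mir152 the number was 11 of 63 and for Mir148a 20 of 64.

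**Figure D3:**
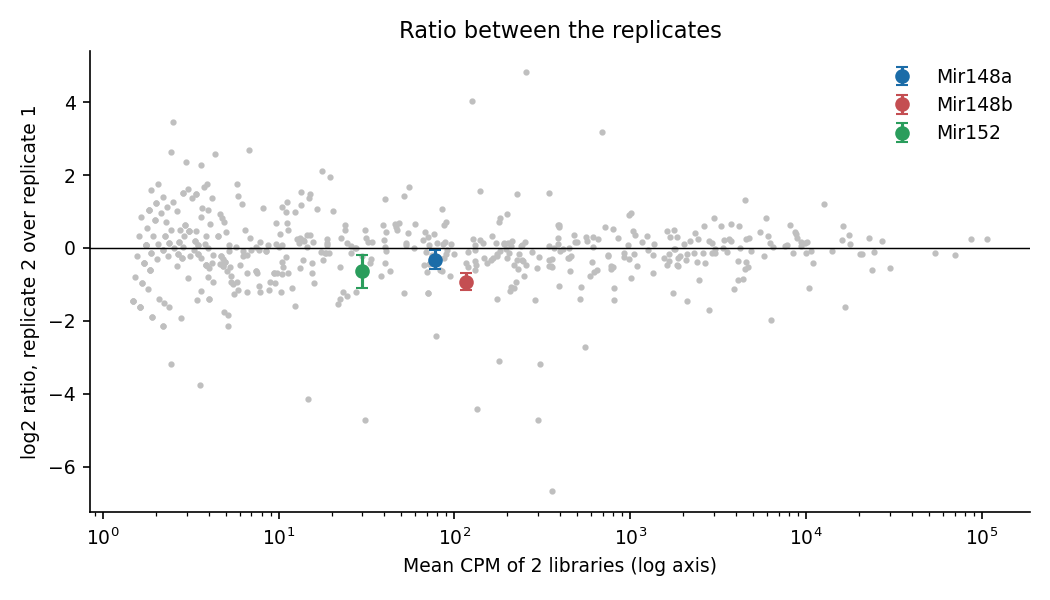
Log2 ratio of replicate 2 over replicate 1 against mean CPM (log axis) for the 525 genes with at least 10 reads over both libraries, in grey. Mir148a, Mir148b and Mir152 are in colour with 95% exact counting intervals, all below 0 and within the spread of genes of like level, whose ratios had an SD near 1.

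Lists of tissue and cell type microRNAs were also unequal between the libraries, where 30.3% of all 525 genes had intervals below 0 and 24.8% above. The cortex list stood higher in replicate 1, as the family did, at 84606 against 62604 CPM. Of its 11 intervals, 6 lay below 0 and 0 above. Of 5 epithelial microRNAs (Mir200a, Mir200b, Mir200c, Mir141 and Mir429), 5 had intervals wholly below 0, and they summed to 1930 CPM (replicate 1) and 93.8 CPM (replicate 2). Choroid plexus and ciliated cell microRNAs summed to 5228 and 2794 CPM, with 5 of the 6 that had 10 reads or more below 0. Red cell microRNAs went the other way, at 60.2 and 550 CPM with 2 of 3 above 0. Those of endothelium and mural cells summed to 16319 and 23815 CPM with 2 of 3 above 0, while Mir145a of mural cells was below 0, with a log2 ratio of -0.53 (-0.75 to -0.32). Leukocyte microRNAs were at 514 and 472 CPM with 2 of 4 below 0 and 2 above. Mir122 of hepatocytes was at 63.3 and 78.6 CPM, with an interval just above 0 (log2 ratio 0.29, 0.02 to 0.57). None of the 23 marker genes of these other cell types was at 0 in a library. Of all 2202 genes, 795 had a read in at least 1 library, so no more than these had one in both. However, Mir141, Mir449b and Mir449c did not reach the minimum of 2 CPM in both libraries, which 20.4% of the 2202 genes did. The part of all these lists in the ratios of the family was not tested.

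The family was set beside microRNAs whose mature strand carries the same 7 bases 1 place earlier, at bases 1 to 7, where 7 of the 1738 mature sequences have them. These strands are printed for the members with reads, with the shared bases in capitals. The RefSeq table used here has no 3p strand for Mir301b.
miR-130a-3p: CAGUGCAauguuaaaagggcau
miR-130b-3p: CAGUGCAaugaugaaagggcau
miR-301a-3p: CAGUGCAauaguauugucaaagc

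Mir130a is known from endothelial cells. The 5 genes Mir130a, Mir130b, Mir301, Mir301b and Mir721 summed to 10560 CPM (replicate 1) and 12476 CPM (replicate 2), which was 38.6-fold and 71.6-fold the sum of the miR-148/152 family. Mir130a made up most of this, with 9427 and 10736 CPM. Mir130b had 930 and 1203 CPM and Mir301 178 and 510 CPM, each above every member of the family in both libraries. Mir301b, with 25.0 and 26.4 CPM, was at the level of Mir152, and Mir721 had no read in either library. Of the other carriers of these bases at that place, Mir130c, Mir6341 and Mir6389 had no read either. None of the 4 detected genes had an interval below 0 (30.3% of the 525 genes did) and 3 had one above (24.8% did). The sum of the list was higher in replicate 2 and that of the miR-148/152 family in replicate 1. No test of that difference is possible with 2 libraries.

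The Mir29 family, like the miR-148/152 family, is known for pairing with messages of DNA methyltransferases, in its case Dnmt3a and Dnmt3b. Its 4 genes summed to 453 CPM (replicate 1) and 339 CPM (replicate 2), which was 1.65-fold and 1.95-fold the miR-148/152 sum. Mir29a had 274 and 184 CPM, Mir29c 153 and 111 CPM and Mir29b-2 13.5 and 27.5 CPM. Mir29c thus lay close to Mir148b in replicate 1 (152 CPM) and above it in replicate 2 (80.8 CPM). Mir29a and Mir29c ranked 176th and 210th of all genes, above the 3 members. In this list 3 of the 4 genes share a run of 22 bases with another microRNA gene, and reads mapped to several places are not in their counts. The share of all genes with such a run was not counted. Of the 4, 2 had intervals below 0 and 1 above, beside 30.3% and 24.8% of the 525 genes.

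Other microRNAs in paralogous host genes were compared because Mir148b and Mir152 sit in Copz1 and Copz2. They were Mir103-1, Mir103-2 and Mir107 in the Pank genes, Mir26a-1, Mir26a-2 and Mir26b in the Ctdsp genes, and Mir128-1 and Mir128-2 in R3hdm1 and Arpp21. The 8 genes summed to 28363 and 18433 CPM, 104-fold and 106-fold the miR-148/152 family. The 3 most abundant were Mir128-1 with 14073 and 6719 CPM, Mir26b with 5519 and 3883 CPM and Mir128-2 with 5607 and 3127 CPM. Each was above every member of the miR-148/152 family in both libraries. Of these 8 genes, 7 share a run of 22 bases with another microRNA gene, against none of the 3 members. Their counts leave out reads mapped to several places. For such runs too, the share over all genes was not counted. In this list 4 genes had intervals below 0 and 3 above, beside 30.3% and 24.8% of the 525 genes.

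**Figure D4:**
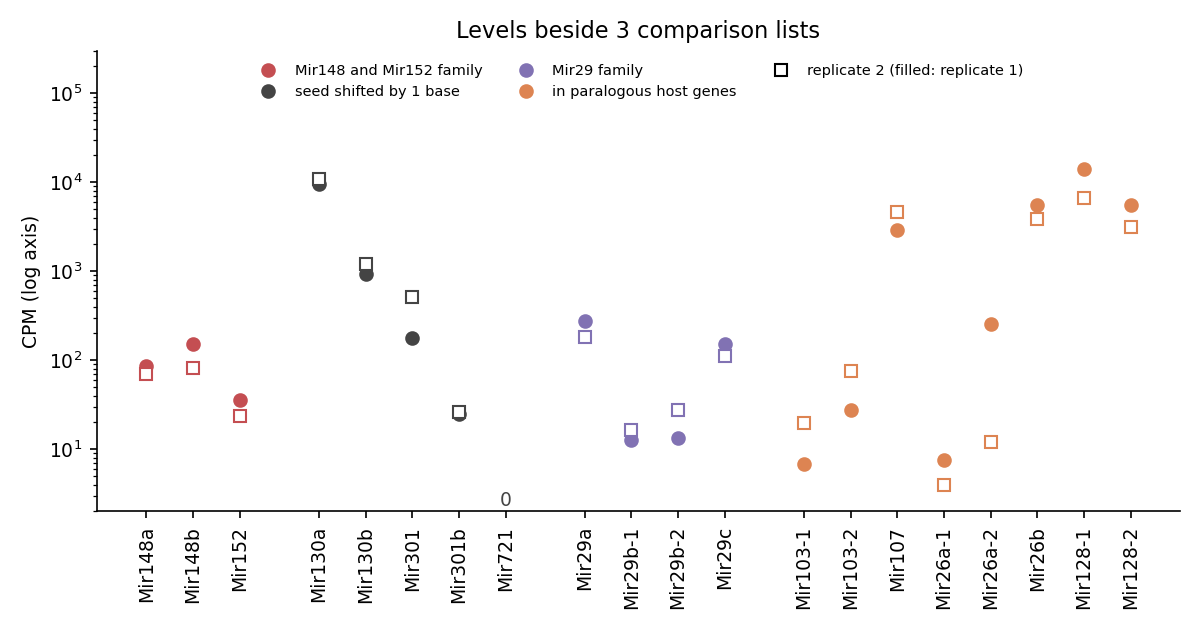
CPM on a log axis for every gene of the family and of the 3 comparison lists, with replicate 1 as filled circles and replicate 2 as open squares. Mir721 had no read and is marked 0. The 3 members lie between 23.5 and 152 CPM. In both libraries they lie below Mir130a, Mir130b, Mir301, Mir29a, Mir29c, Mir107, Mir26b, Mir128-1 and Mir128-2. In replicate 1 Mir29c is only just above Mir148b (153 against 152 CPM).

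The genes most like each member in level were found by the distance between log2(CPM + 1) values over the 2 libraries. With only 2 values per gene, this is a description of level. Nearest to Mir148a were Mir212 (78.8 and 70.3 CPM), an activity-regulated microRNA of neurons, mmu-mir-3535 (82.7 and 61.2 CPM) and Mir27a (98.7 and 65.9 CPM). Those nearest to Mir148b were Mir145a of mural cells (140 and 97.8 CPM), Mir219a-2 of oligodendrocytes (132 and 101 CPM) and Mir193b (157 and 105 CPM). Mir152 was closest to Mir92-2 (37.4 and 25.0 CPM), Mir758 (37.4 and 28.6 CPM) and Mir3078 (31.8 and 27.5 CPM). Of these, Mir219a-2 and Mir92-2 share a run of 22 bases with Mir219a-1 and Mir92-1, so that their counts are uncertain. The members were left out as candidates for each other.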

How the data were processed

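The deposited values are raw, unpooled read counts for microRNA genes, on build mm10 and annotation M21 per the file headers in the deposited notes. Aligner and counter are not given in the sources used here. Of the 3 value columns, the third column of each table was read as the annotated strand, from the layout and the values. Totals of unmapped (19.3% and 25.6% of reads in replicates 1 and 2), multiply mapped (45.8% and 41.0%) and unassigned reads (4.50% and 5.63%) were left out of library sizes. All 2202 gene IDs matched M21.

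From these counts, CPM, Wilson and Clopper-Pearson intervals (95%) and ratios with 0.5 added to each count were computed (scipy 1.17.1, edgeR 4.0.16 for TMM, DESeq2 1.42.0 for size factors as an alternative). The ratio script was tested on simulated data. No test was run, since there is 1 group of 2 libraries.

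Named genes were the 3 members, the 3 most abundant of each comparison list, and the 3 genes nearest each member in level. Other list genes are named for completeness and were added with their values in view. The members and lists were chosen with earlier results of these data known. Alternatives covered strand, denominator, scaling, filters, length and each replicate.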

Additional observations from a re-analysis of the deposited data

How the results depend on the processing

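The members' order and the direction of their ratios held under every alternative run. Scaled to mapped reads instead of counted reads, mean levels were 29.3 for Mir148a, 43.7 for Mir148b, 11.2 for Mir152 and 84.1 for the family. Per base of hairpin, log2 ratios over Mir152 were 0.97 for Mir148a and 1.52 for Mir148b. Among all genes the percentage below each member was 89.3 for Mir148a, 90.0 for Mir148b and 87.4 for Mir152, and among genes at 10 CPM or more 25.9, 30.9 and 12.9, as the filter changes which genes are ranked. Leaving out a replicate gave 47.3 to 49.1 for Mir148a and 49.6 to 55.1 for Mir148b. With TMM restricted to genes that had at least 10 reads, the log2 ratio of Mir148a was -0.26 with an interval that reached 0. The number of genes at least 2-fold different between replicates was 121, against 49 with a summed count of 100 or more and 297 with no minimum. Of the rest, 33 values stayed within the replicate spread or on the same side of 0. Some of these were fixed in advance. Ratios between members counted on either strand had to be the same, as no member had an opposite-strand read. With 2 added to each count, the counting intervals were computed without the addition, so they were the main ones. Another 7 counts of genes stayed within 1.5 times the reported one, such as 317 genes detected at 10 CPM or more against 450 at 2 CPM. Leaving out 1 of 2 replicates gives back the other's value for levels, ratios between members and list shares, so those 20 values say nothing about stability. Percentiles with a replicate left out, some of them among the 33 values, are likewise only those of the other replicate. Counts of 65 to 539 reads limit the precision of each member. No paired analysis was possible because there is only 1 group.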
